A study of Mus musculus with 18 samples.

Results

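The 10 genes described here make fatty acids from acetyl-CoA in the cytosol, or set how much of that machinery is made: *Acly*, *Acss2*, *Acaca*, *Acacb*, *Fasn*, *Me1*, *Scd1*, *Scd2*, *Mlxipl* and *Thrsp*. They were taken by symbol from the 23352 gene symbols of the deposited tables. All 10 had 1 entry per table, no failed estimate and enough signal (mean FPKM of 1 or more) to be among the 10835 genes tested. The livers came from 18 male mice of C57BL/6J background aged 20 weeks that had been fed a high-fat diet (HFD) for 12 weeks. Of these, 9 were wild type (WT) and 9 were homozygous for a knockout of *Gpr180* (*Gpr180*KO), and each mouse gave 1 library. The knockout is a deletion of exon 6 of *Gpr180* by CRISPR/Cas9 in every cell of the body, bred through at least 4 backcrosses, and the number of founders behind these mice is not given in the sources used here. The study asked which transcripts differ in the liver of mice that lack this receptor. Blood of such mice was drawn after a short fast, but the time since the last meal is not given for the livers used for RNA.

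In the liver, new fatty acids are built from citrate that leaves the mitochondria. ATP citrate lyase cleaves it to acetyl-CoA, acetyl-CoA carboxylase turns acetyl-CoA into malonyl-CoA, and fatty acid synthase joins these units into palmitate with electrons from NADPH. Stearoyl-CoA desaturases then insert a double bond. The genes of the pathway are switched on after carbohydrate feeding, by the insulin-responsive factor SREBP-1c and by the glucose-responsive factor ChREBP, which *Mlxipl* encodes.

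The letters just before the start sites of 5 of these genes are shown because 4 of them (*Acly*, *Acss2*, *Acaca* and *Fasn*) varied together between WT livers, while *Mlxipl* did not vary with them. Each line holds the 250 bases before a RefSeq start site of build GRCm38.p6, read 5′ to 3′ on the strand of the gene. The windows are chr11:100528001-100528250 (minus strand) for *Acly*, chr2:155517793-155518042 (plus) for *Acss2*, chr11:84195188-84195437 (plus) for *Acaca*, chr11:120824548-120824797 (minus) for *Fasn* and chr5:135106641-135106890 (plus) for *Mlxipl*. Capitals mark matches, on either strand, to the E-box CACGTG, the sterol element TCACNCCAC, the CCAAT box CCAAT and the GC box GGGCGG.
Acly: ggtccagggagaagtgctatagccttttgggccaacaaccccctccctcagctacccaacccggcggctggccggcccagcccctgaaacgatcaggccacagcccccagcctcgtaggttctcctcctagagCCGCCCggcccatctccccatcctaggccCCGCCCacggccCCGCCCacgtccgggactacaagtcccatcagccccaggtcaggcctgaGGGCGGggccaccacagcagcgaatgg
Acss2: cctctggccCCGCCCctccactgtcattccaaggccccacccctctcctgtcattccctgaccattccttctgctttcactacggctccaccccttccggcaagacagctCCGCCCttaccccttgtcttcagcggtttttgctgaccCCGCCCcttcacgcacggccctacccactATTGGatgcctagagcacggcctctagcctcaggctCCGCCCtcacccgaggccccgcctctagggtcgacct
Acaca: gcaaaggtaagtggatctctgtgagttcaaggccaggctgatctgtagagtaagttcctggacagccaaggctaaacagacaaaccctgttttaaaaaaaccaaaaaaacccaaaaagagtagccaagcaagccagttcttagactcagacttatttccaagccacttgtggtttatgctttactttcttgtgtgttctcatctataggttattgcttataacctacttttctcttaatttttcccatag
Fasn: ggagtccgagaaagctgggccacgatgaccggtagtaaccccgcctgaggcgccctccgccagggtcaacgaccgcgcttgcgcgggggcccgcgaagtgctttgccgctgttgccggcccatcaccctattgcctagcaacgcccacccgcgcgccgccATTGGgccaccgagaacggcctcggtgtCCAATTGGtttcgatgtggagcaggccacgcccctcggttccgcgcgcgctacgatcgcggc
Mlxipl: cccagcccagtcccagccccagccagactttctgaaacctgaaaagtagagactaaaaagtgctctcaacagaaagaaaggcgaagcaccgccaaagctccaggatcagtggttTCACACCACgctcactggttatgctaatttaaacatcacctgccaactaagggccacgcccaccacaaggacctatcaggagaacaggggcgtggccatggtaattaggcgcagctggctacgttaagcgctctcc
The reference holds such windows for 8 of the 10 genes, and 10 windows in all, since *Mlxipl* and *Me1* have 2 each. *Scd1* and *Scd2* have none. The CCAAT box, the binding motif of NF-Y, lay in 6 of the 10 windows, against 33.8% of 32817 windows of all genes. The GC box lay in 4 of the 10, against 32.7% of all windows. In *Fasn* matches on both strands overlap in CCAATTGG, 62 bases before the start site. The sterol element was matched once, in the *Mlxipl* window printed above (TCACACCAC, 136 bases before the start site), against 1.05% of all windows. The E-box was matched once, in the other *Mlxipl* window, whose start site lies 17001 bases upstream and outside the *Mlxipl* locus of the deposited tables, against 6.02% of all windows. The only window of *Acaca* held none of the 4 motifs, and bases before any other start site of that gene were not looked at. A match is a string of letters, not a shown binding site.

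Before the genes are compared, 2 properties of the libraries need stating. The mice are named in 2 styles, which the labels do not explain. Mice of 1 style are called series 1 here (4 of each genotype) and mice of the other series 2 (5 of each genotype). The library of the *Gpr180*KO mouse KO51 (replicate 5 of its genotype, in series 2) stood apart by transcript length. In KO51, genes with transcripts over 5000 nucleotides (1924 genes) were set against genes of 1000 to 2000 nucleotides (2166 genes). By medians of the log2 deviation from the mean of the WT libraries, the long genes were lower by 1.46. The same difference lay between -0.15 and 0.12 in the other 17 libraries. The FPKM values of KO51 also summed to the most of any library (718746, with a median of 570149 over all). FPKM are reads scaled to transcript length and to library size. *Acaca*, *Acacb*, *Fasn* and *Scd2* have transcripts over 5000 nucleotides, and *Thrsp*, with 1277 nucleotides, has the shortest of the 10. The differences of the 10 genes are therefore plotted with and without KO51, and other results include KO51 unless stated. *Gpr180* itself was at 4.46 to 9.25 FPKM in WT livers (median 7.29) and 0.876 to 1.99 in *Gpr180*KO livers (median 1.79), with no overlap (log2 difference -1.998, SE 0.18, adjusted p = 4.74e-06). The table counts the whole gene, so what remains can come from exons outside the deletion.

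Differences between genotypes are given as *Gpr180*KO minus WT on the scale of log2(FPKM + 0.1), with the standard error (SE) and the p-value of limma adjusted by Benjamini-Hochberg over all 10835 genes. The FPKM of each gene in each liver are plotted by genotype and series.

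**Figure D1:**
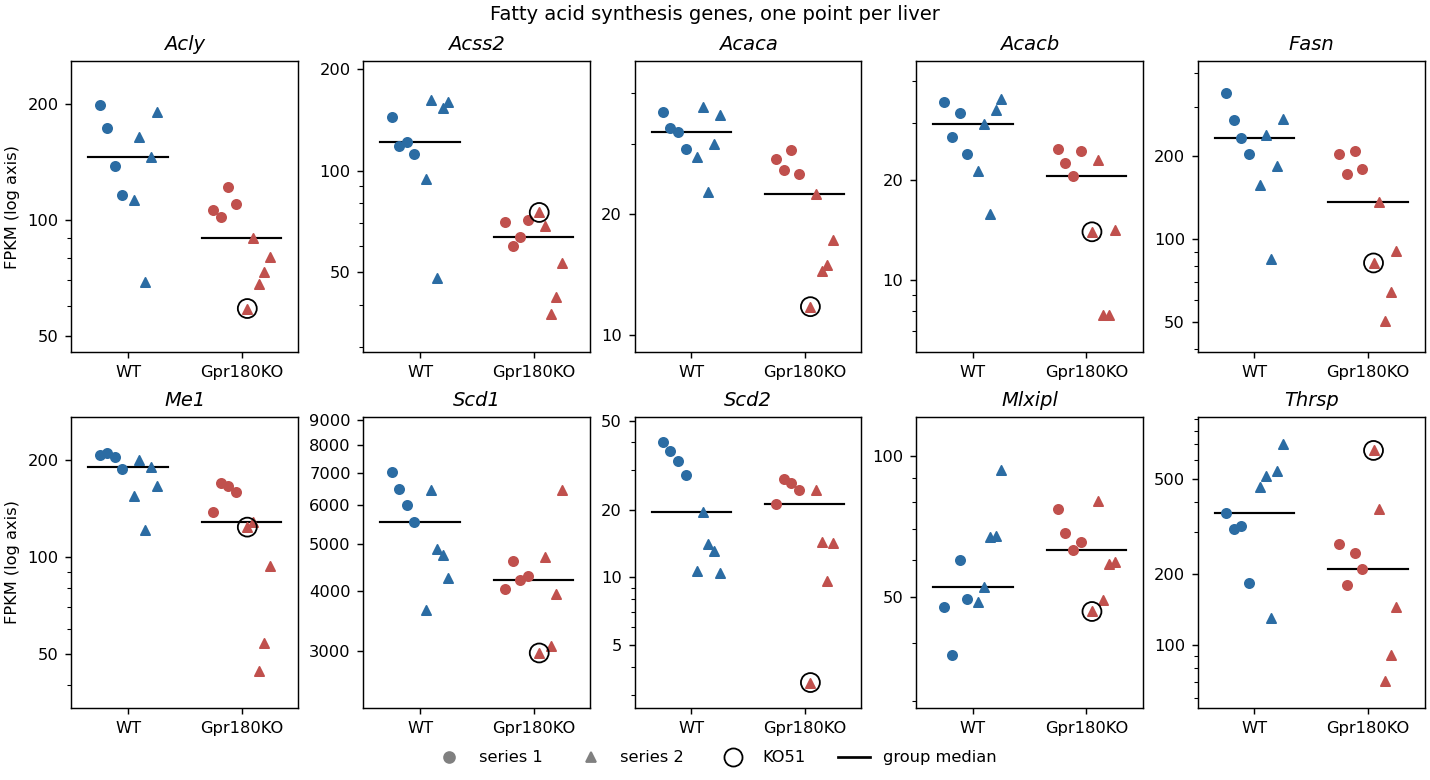
FPKM (log axis) of the 10 fatty acid synthesis genes, 1 point per liver, WT in blue and *Gpr180*KO in red, circles for series 1, triangles for series 2, a ring around KO51 and a black line at the group median. All 9 *Gpr180*KO livers lie below the WT median for *Acly*, *Acss2*, *Acaca*, *Acacb*, *Fasn* and *Me1*, and for each of the 10 genes the groups overlap.

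The genes that supply acetyl-CoA were lower in *Gpr180*KO livers. *Acss2* encodes the acetyl-CoA synthetase of the cytosol and nucleus, which charges acetate directly. Its FPKM ran from 48.1 to 163 in WT livers (median 122) and from 37.6 to 75.3 in *Gpr180*KO livers (median 63.6). All WT livers except WT134, which had the lowest value of its group, lay above the highest *Gpr180*KO liver. *Acss2* fell by 0.999 on the log2 scale (SE 0.20, adjusted p = 0.0146), the most negative estimate of the 10 genes with all livers, and its mean in *Gpr180*KO livers was 48.6% of WT. It passed the threshold in 32 of the 33 alternative fits, and missed it in series 2 alone (-1.08, adjusted p = 0.157), where limma called 0 genes and 2019 genes had an unadjusted p under 0.05. The adjusted p ranged from 0.000423 to 0.157 over the alternatives.

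*Acly*, the lyase that makes acetyl-CoA from citrate, was at 69.0 to 199 FPKM in WT livers (median 146) and 59.0 to 122 in *Gpr180*KO livers (median 89.97). The 9 *Gpr180*KO values were all below the WT median, and 6 of the 9 WT values were above the highest *Gpr180*KO value. *Acly* fell by 0.66 (SE 0.18, adjusted p = 0.0424), to 62.0% of the WT mean. Without KO51, which had the lowest value, the difference was -0.59 (adjusted p = 0.0552), and with libraries scaled by median-of-ratios it was -0.54 (adjusted p = 0.0929). Leaving out 1 library at a time kept the call in 6 of 18 fits, those without WT131, WT134, WT157, KO319, KO321 or KO322, and over all alternatives the adjusted p ranged from 0.0102 to 0.144.

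Both acetyl-CoA carboxylases had lower means in *Gpr180*KO livers. *Acaca* encodes the carboxylase of the cytosol, whose malonyl-CoA is used for synthesis. It was at 22.7 to 37.1 FPKM in WT livers (median 32.1) and 11.8 to 28.9 in *Gpr180*KO livers (median 22.5), and 5 *Gpr180*KO livers lay below the lowest WT liver. *Acaca* fell by 0.63 (SE 0.16, adjusted p = 0.0337), to 66.6% of WT. KO51 had the lowest value. Without it the difference was -0.54 (adjusted p = 0.0363) and the mean 70.3% of WT. After median-of-ratios scaling the adjusted p was 0.0548, and after the length trend was removed from each library the difference was -0.40 (adjusted p = 0.130). The call was kept in 10 of 18 fits that left out 1 library, and lost without W317, W318, W320, WT133, KO52, KO53, KO54 or KO56. Over the alternatives the adjusted p ranged from 0.00597 to 0.130.

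*Acacb* encodes the carboxylase anchored at the mitochondrial surface, whose malonyl-CoA restrains the entry of fatty acids for oxidation. Its FPKM were 15.8 to 35.5 in WT livers (median 29.6) and 7.81 to 24.9 in *Gpr180*KO livers (median 20.6). KO53 and KO54, at 7.81 and 7.83, were the lowest livers, and all 4 of series 1 were above 20 (20.6 to 24.9). The difference was -0.74 (SE 0.24, adjusted p = 0.0717) and -0.715 without KO51 (adjusted p = 0.0885). It passed the threshold only with the series as a block, with or without KO51, and without WT134.

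*Fasn*, the synthase that builds palmitate, spanned 85.1 to 339.8 FPKM in WT livers (median 233) and 50.6 to 208 in *Gpr180*KO livers (median 136). The 4 *Gpr180*KO livers of series 1 (173 to 208) lay within the WT range, and those of series 2 lay from 50.6 to 136. The difference was -0.81 (SE 0.29, adjusted p = 0.106). Without KO51 the difference of *Fasn* was -0.75 (adjusted p = 0.141). With all livers its SE was larger than those of *Acly*, *Acss2* and *Acaca*. With the series as a block the estimate stayed at -0.81 and the SE was 0.22 (adjusted p = 0.0219), and without WT134 the adjusted p was 0.0444. Over the alternatives the adjusted p ranged from 0.0219 to 0.31.

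*Me1*, the cytosolic malic enzyme, regenerates NADPH for the synthase. It was at 121 to 209.6 FPKM in WT livers (median 190.4) and 44.2 to 170.0 in *Gpr180*KO livers (median 128). KO53 and KO54 were lowest again, at 44.2 and 54.2. The difference was -0.72 (SE 0.23, adjusted p = 0.0737), and with the series as a block the adjusted p was 0.0206. In series 1 alone *Me1* was lower by 0.36 with an SE of 0.07 (adjusted p = 0.0357).

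The desaturases were not called with all livers weighted equally. *Scd1*, the main stearoyl-CoA desaturase of the liver, had the highest FPKM of the 10 genes, at 3645 to 7037 in WT livers (median 5555) and 2973 to 6449 in *Gpr180*KO livers (median 4213). Of the *Gpr180*KO livers 8 of 9 were below the WT median, and the highest of them, KO56 at 6449, lay well above the next at 4684. The difference was -0.36 (SE 0.15, adjusted p = 0.154), and in series 1 alone -0.55 (SE 0.09, adjusted p = 0.0274). With weights per library it was -0.40 (adjusted p = 0.0199), and *Scd1* was then 1 of 4 genes called lower, with *Acly*, *Acss2* and *Acaca*. *Scd2*, a desaturase with its main role outside the adult liver, was at 10.50 to 40.0 FPKM in WT livers and 3.40 to 27.5 in *Gpr180*KO livers, with medians of 19.5 and 21.3. The group means were 22.9 and 18.4, so that medians and means ordered the groups in opposite ways. The difference was -0.35 (SE 0.37, adjusted p = 0.592) with all livers and -0.07 without KO51. KO51 was at 3.40 FPKM, against 9.65 to 24.5 in the other series 2 *Gpr180*KO livers. In series 1 alone, which does not hold KO51, *Scd2* differed by -0.47 (SE 0.12, adjusted p = 0.0531), and in series 2 alone by -0.25 (adjusted p = 0.757). *Scd1* and *Scd2* lie in the same gene cluster on chromosome 19 and are similar in sequence, and how reads that match both were shared out is not given in the sources used here.

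The gene of the transcription factor was not lower. *Mlxipl* was at 37.7 to 93.5 FPKM in WT livers (median 52.6) and 46.7 to 80.5 in *Gpr180*KO livers (median 63.0), a difference of 0.14 (SE 0.15, 95% confidence interval -0.16 to 0.45, adjusted p = 0.569). It was the only one of the 10 with a higher mean in *Gpr180*KO livers, at 108.5% of WT. In series 1 alone the difference was 0.51 (adjusted p = 0.0597) and in series 2 alone -0.15 (adjusted p = 0.678). *Thrsp* encodes a small nuclear protein induced by thyroid hormone and carbohydrate that promotes lipogenesis. It varied widely between livers, from 129.7 to 704 FPKM in WT livers (median 361) and from 70.6 to 660.4 in *Gpr180*KO livers (median 209.7), with coefficients of variation of 46.6% and 72.3%. The highest *Gpr180*KO value was that of KO51, where the next was 375. The difference was -0.79 (SE 0.38, adjusted p = 0.230), and -0.9985 without KO51 (adjusted p = 0.0907).

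**Figure D2:**
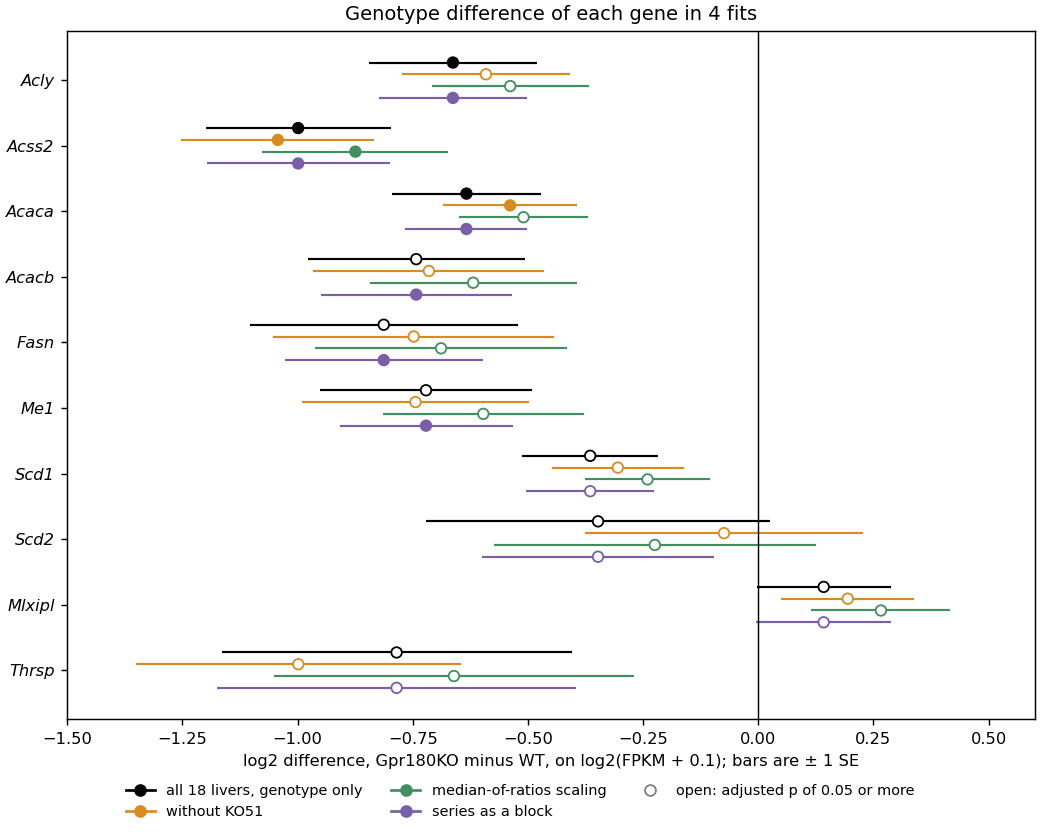
Difference of each gene, *Gpr180*KO minus WT on log2(FPKM + 0.1), with bars of ± 1 SE, in 4 fits: all 18 livers with genotype only (black), without KO51 (orange), with median-of-ratios scaling (green) and with the series as a block (purple). Filled points passed an adjusted p of 0.05. *Acss2* is filled in all 4 fits, and *Scd1*, *Scd2*, *Mlxipl* and *Thrsp* in none.

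In all, limma called 3 of the 10 genes lower (*Acly*, *Acss2* and *Acaca*) and 0 higher, where it called 4.28% of all genes lower and 0.452% higher. At an unadjusted p of limma under 0.05, 7 of the 10 were lower and 0 higher. Of the 10835 genes tested, 2403 passed that p in either direction, and 2128 (19.6% of all) were lower. The mean was lower in *Gpr180*KO livers for 9 of the 10, and for 76.9% of all genes. The median difference of the 10 genes was -0.69 against -0.13 for all genes tested. Since the median gene was itself lower as the values stand, the genes were also read against it. Median-of-ratios scaling moved the median of all genes to -0.0054 and left *Acss2* as the only one of the 10 called (1.58% of all genes lower, 171 lower and 112 higher in place of 464 and 49), with a median over the 10 of -0.57. None of the 10 had every *Gpr180*KO liver below every WT liver, which held for 0.175% of all genes. Without KO51, 2 of the 10 were called (*Acss2* and *Acaca*, 6.36% of all genes). With the length trend removed it was *Acss2* alone (3.54% of the 9885 genes with a known length), and the median over the 10 was -0.50. The number called moved by more than 1.5 times when single libraries were left out: to 1 without W317, W318, W320, WT133, KO52, KO53, KO54 or KO56, and to 5 without WT134.

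The livers were not alike within a genotype, as the plot of each liver against the WT mean shows. WT134 had the lowest WT value for 7 of the 10 genes, with *Acss2* at 48.1 FPKM where the next WT liver had 94.9, and *Fasn* at 85.1 where the next had 157. *Mlxipl* in the same liver was at 67.1 FPKM, above the WT median of 52.6. Among *Gpr180*KO livers, KO53 was lowest for 5 of the 10 genes and KO51 for the other 5. KO51 was also the highest of its group for *Acss2* and *Thrsp*.

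**Figure D3:**
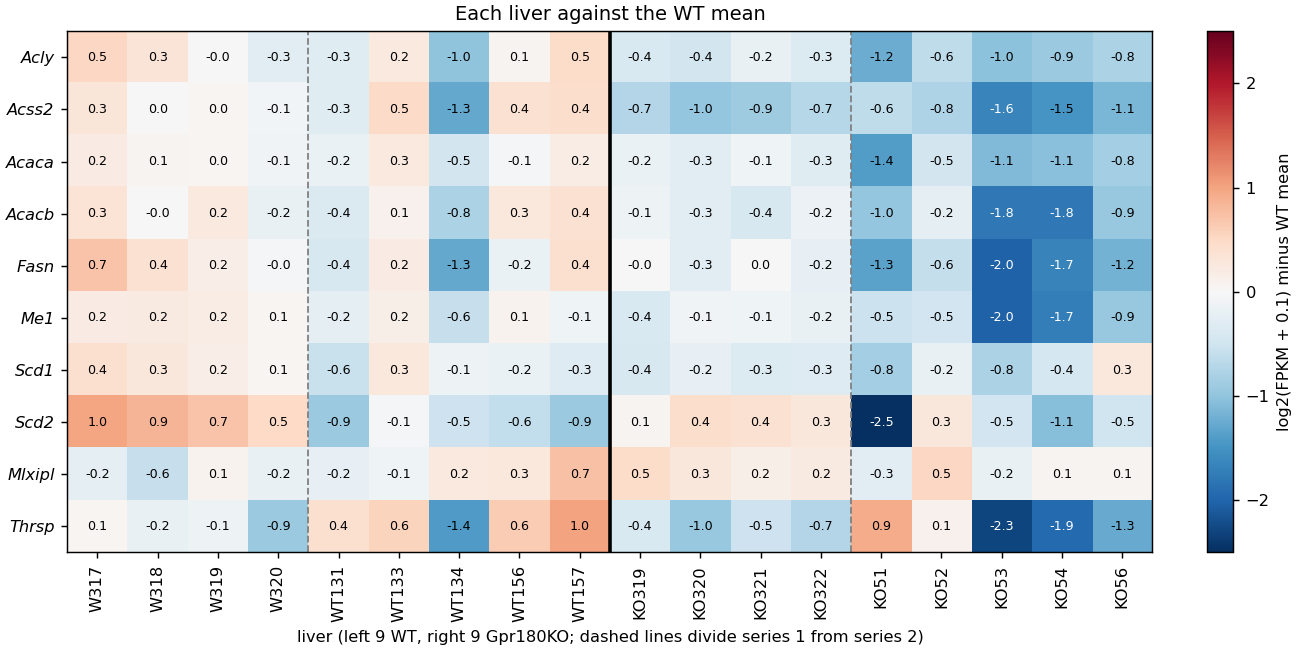
Value of each gene in each liver as log2(FPKM + 0.1) minus the mean of the 9 WT livers (red higher, blue lower), with WT livers left of the solid line, *Gpr180*KO livers right of it, and dashed lines between the series. In WT134, KO51, KO53, KO54 and KO56, 7 or 8 of the 10 genes lie more than 0.5 below the WT mean, against at most 3 in any other liver, while *Thrsp* is red in KO51.

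The series separated some of these values. For *Scd2* in WT livers, series 1 ran from 28.5 to 40.0 FPKM and series 2 from 10.5 to 19.5, without overlap. In *Gpr180*KO livers the series did not overlap for *Acly* (102 to 122 in series 1 and 59.0 to 89.97 in series 2), *Acaca* (25.2 to 28.9 and 11.8 to 22.5), *Fasn* (173 to 208 and 50.6 to 136) or *Me1* (138 to 170.0 and 44.2 to 128). With the series as a block, 6 of the 10 genes were called lower (*Acly*, *Acss2*, *Acaca*, *Acacb*, *Fasn* and *Me1*), where 9.52% of all genes were, and the same 6 were called with the block and without KO51, where 16.2% of all genes were. The fall of *Acaca* was 0.27 in series 1 and 0.92 in series 2, and the difference between them was -0.65 (SE 0.23). Series 2 includes KO51, which had the lowest *Acaca* value (11.8 FPKM). limma's interaction of genotype and series gave an unadjusted p under 0.05 for 2 of the 10 genes, *Acaca* and *Mlxipl*, against 7.69% of all genes. No gene passed the adjusted threshold, and the lowest adjusted p among the 10 was 0.581, so a difference between the series was not shown.

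KO51 was then set against the other 4 *Gpr180*KO livers of series 2. *Thrsp*, the shortest transcript, was higher in KO51 by 2.27 on the log2 scale (660.4 FPKM against 70.6 to 375), and *Scd2* was lower by 2.09. *Acacb* and *Fasn*, with transcripts of 8788 and 10050 nucleotides, differed by 0.23 and 0.04, where genes over 7000 nucleotides had a median of -1.28. *Acss2* and *Me1* were higher by 0.615 and 0.757. The part of transcript length in these differences was not tested gene by gene.

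**Figure D4:**
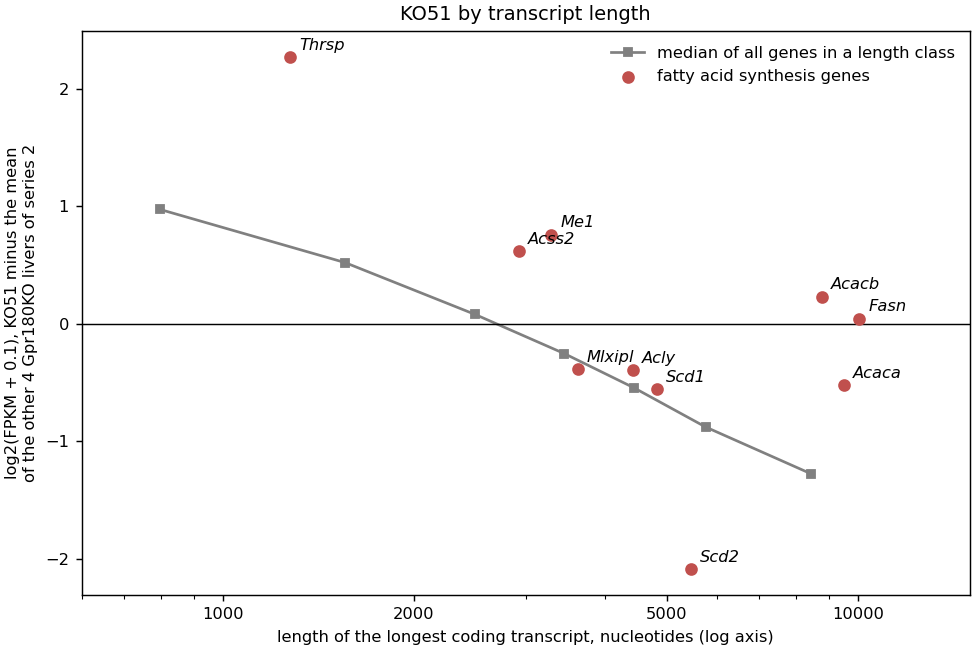
Difference of KO51 from the mean of the other 4 *Gpr180*KO livers of series 2, on log2(FPKM + 0.1), against the length of the longest coding transcript in nucleotides (log axis). Grey squares are medians of all genes in a length class and run from 0.97 for the shortest to -1.28 for the longest class. Red points are the 10 genes.

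Some of the genes varied together from liver to liver. The covariation was measured within each genotype with Pearson's r and Spearman's rho on log2(FPKM + 0.1), over the 45 pairs of the 10 genes and the 10 pairs with *Srebf1*, which encodes SREBP-1c. That made 110 relations in the 2 genotypes, adjusted together. On values as they stand, the median r of the 45 pairs was 0.56 in WT and 0.65 in *Gpr180*KO livers, against 0.08 and 0.10 over all pairs of tested genes, and 13 and 14 pairs passed an adjusted p of 0.05 by exact permutation of r, against 4 and 6 for rho. Because the series did not overlap for several genes, the values that follow are of deviations from the series means, with exact permutation of the pairings within series. The counts of 13 and 14 include pairs of genes whose series stood apart.

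In WT livers the median r of these deviations was 0.45, against 0.09 for all pairs of genes, 41 of 45 pairs were positive, and 14 passed (10 for rho). *Acly* and *Fasn* were the closest pair (r = 0.99, rho = 0.98, exact permutation adjusted p = 0.0191 for both, n = 9), and r was 0.97 without the 2 livers farthest from the median. *Acaca* and *Fasn* had r = 0.97 (rho = 0.97, adjusted p = 0.0191 by exact permutation) and *Acss2* and *Acacb* had r = 0.94 (rho = 0.90, adjusted p = 0.0255 by exact permutation, 0.124 for rho). *Acly*, *Acss2*, *Acaca*, *Acacb*, *Fasn* and *Thrsp* formed 15 pairs, of which 13 passed. The other 2 were *Acaca* with *Thrsp* (r = 0.87, adjusted p = 0.0562 by exact permutation) and *Acaca* with *Acacb* (r = 0.87, adjusted p = 0.0643 by exact permutation). *Scd1* and *Scd2* made a pair of their own (r = 0.96, rho = 0.95, adjusted p = 0.0191 by exact permutation), while the median r of *Scd1* with the 9 other genes was 0.27 and that of *Scd2* 0.17. *Mlxipl* had a median r of 0.09 with the others and passed with none. *Me1* had a median r of 0.82 with the 9 other genes but also passed with none. Without the 2 livers farthest from the median, its r with *Acly*, *Acss2*, *Acaca*, *Acacb*, *Fasn* and *Thrsp* ran from 0.40 to 0.75.

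In *Gpr180*KO livers the median r was 0.56, against 0.019 for all pairs of genes, and 40 of 45 pairs were positive. The 2 that passed were *Acss2* with *Thrsp* (r = 0.96, rho = 0.88) and *Acly* with *Acaca* (r = 0.94, rho = 0.78), each with an adjusted p of 0.0300 for r by exact permutation. For rho 0 pairs passed, and these had adjusted p of 0.124 and 0.185 by exact permutation. Without the 2 livers farthest from the median r was 0.92 and 0.80. Many of the other pairs changed without KO51. *Acaca* and *Thrsp* had r = 0.00 with KO51 and 0.98 without it, and *Acly* and *Thrsp* -0.10 and 0.87. Without KO51 the median r was 0.83, against 0.018 for all pairs of genes. All 45 pairs were then positive, from 0.24 to 0.98, and 7 passed for r and 0 for rho. *Fasn* and *Thrsp* were then the closest pair (r = 0.98, rho = 0.90, adjusted p of r 0.0294 by exact permutation, n = 8). *Mlxipl* had a median r of 0.82 with the other genes in these 8 livers and passed with *Acacb* (r = 0.85, adjusted p = 0.0498 by exact permutation). Whether r differed between the genotypes was not tested.

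**Figure D5:**
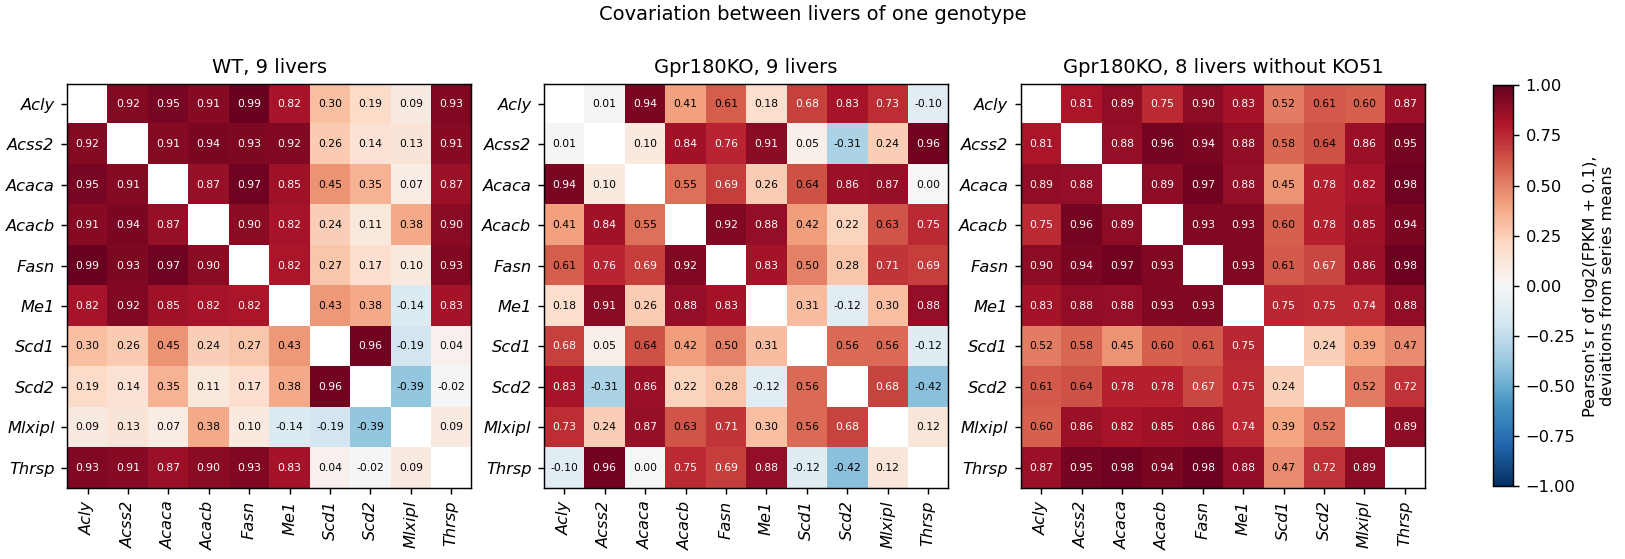
Pearson's r between pairs of the 10 genes over livers of 1 genotype, on deviations of log2(FPKM + 0.1) from the series means (red positive, blue negative). In WT livers the block from *Acly* to *Me1* together with *Thrsp* holds values from 0.82 to 0.99, *Scd1* with *Scd2* is at 0.96, and *Mlxipl* runs from -0.39 with *Scd2* to 0.38 with *Acacb*. No WT pair with *Me1* passed the adjusted threshold. In *Gpr180*KO livers the pattern depends on KO51, and the right panel leaves it out.

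*Srebf1* itself was at 54.5 to 92.9 FPKM in WT livers (median 66.2) and 63.1 to 109 in *Gpr180*KO livers (median 85.4). The difference was 0.32 (SE 0.12, adjusted p = 0.138), in the direction opposite to that of 9 of the 10 genes. It was called higher in 3 alternative fits: weights per library (adjusted p = 0.0372), a series block fitted after median-of-ratios scaling (0.0430) and removal of the length trend (0.0368). Its deviations from the series means had a median r of 0.57 with the 10 genes in WT livers and 0.42 in *Gpr180*KO livers. No pair with *Srebf1* passed in either genotype, and the highest r was with *Acly* in WT livers (r = 0.76, rho = 0.82, adjusted p = 0.142 by exact permutation, n = 9).

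The balance within steps was compared by ratios of FPKM, tested by two-sided exact permutation of the genotype labels (48620 ways) with adjustment over the 3 ratios. The ratio of *Acss2* to *Acly*, the acetate and citrate routes to acetyl-CoA, was 0.685 to 1.05 in WT livers (median 0.843) and 0.521 to 1.275 in *Gpr180*KO livers (median 0.651). The mean log2 ratio differed by -0.34 (*Gpr180*KO minus WT) (exact permutation p = 0.0395, adjusted p = 0.118). KO51 had the highest ratio of all, and without it the difference was -0.45 (exact permutation p = 0.000823). The ratio of *Acacb* to *Acaca* had medians of 0.830 and 0.878 in WT and *Gpr180*KO livers (log2 difference -0.11, exact permutation p = 0.480, adjusted p = 0.720). That of *Scd2* to *Scd1* had medians of 0.00302 and 0.00522 (difference 0.01, exact permutation p = 0.984, adjusted p = 0.984). In WT livers this ratio ran from 0.0051 to 0.0057 in series 1 and from 0.0025 to 0.00302 in series 2. In *Gpr180*KO livers it ran from 0.0053 to 0.00625 in series 1 and from 0.0011 to 0.00522 in series 2. The series did not overlap in either genotype, and each median is the highest value of series 2.

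Other genes of the programme were counted from lists, beside shares of all genes tested of 4.28% called lower and 0.452% called higher by limma. Of 16 other regulators of lipogenic transcription, 1 was called lower and 0 higher: *Srebf2*, the factor of sterol synthesis, at 14.1 ± 1.46 FPKM in WT and 9.93 ± 1.83 in *Gpr180*KO livers (SD, n = 9; log2 difference -0.51, adjusted p = 0.0159). *Nr1h3*, which encodes the oxysterol receptor LXRα, was at 53.3 and 57.1 FPKM, and *Mlx*, the partner of ChREBP, was at 22.6 and 20.0 (adjusted p = 0.0922, and 0.0483 without KO51). Of 11 tested genes of citrate export and NADPH supply 1 was called lower, *Pgd*, a NADPH-producing dehydrogenase of the pentose phosphate pathway (37.3 ± 7.87 and 23.5 ± 6.21 FPKM, difference -0.69, adjusted p = 0.0274, and 0.0507 after median-of-ratios scaling). *Slc25a1*, the citrate carrier, was at 135 and 116 FPKM (adjusted p = 0.233).

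Of 15 tested genes that elongate, desaturate or use the new fatty acids, 3 were called lower and 1 higher. The elongase of palmitate, *Elovl6*, differed by -0.77 (47.8 ± 10.6 and 28.1 ± 6.11 FPKM, adjusted p = 0.0147), *Acsl3*, an acyl-CoA synthetase, by -0.66 (adjusted p = 0.0162) and *Elovl1*, an elongase of long chains, by -0.38 (adjusted p = 0.0288, and 0.123 after median-of-ratios scaling). *Elovl3*, another elongase, was higher by 0.96 (101 ± 38.0 and 189 ± 50.2 FPKM, adjusted p = 0.0219). Of 9 tested glucose-responsive genes of hepatocytes none was called by limma at the adjusted threshold, and 5 were lower at an unadjusted p under 0.05. Of all genes tested 19.6% were lower at that unadjusted p. *Pklr*, the liver pyruvate kinase and a classic ChREBP target, was at 129 and 74.0 FPKM (difference -0.94, adjusted p = 0.0510). The median differences of these 4 lists were -0.06, -0.25, -0.38 and -0.23, against -0.13 for all genes.

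Genes outside the pathway that followed it most closely were ranked by their mean r with the 10 genes over deviations from the means of each genotype and series, in all 18 livers. Among the closest 10 of 10825 genes were *Snhg11*, *Tom1l2*, *Abcc3*, *Dlat*, *Slc47a1*, *Col13a1*, *Pdk1*, *Gbe1* and *Sfxn5*, with a mean r from 0.663 to 0.641. The mean r of the 10 genes among themselves was 0.463. The closest genes were picked for a high mean r and the 10 genes by symbol, so these values are not comparable. *Dlat* encodes a subunit of pyruvate dehydrogenase, *Pdk1* a kinase that inhibits that enzyme and *Gbe1* the glycogen branching enzyme. Of those named, limma called *Gbe1* lower (76.7 ± 11.2 FPKM in WT and 53.1 ± 14.6 in *Gpr180*KO livers, adjusted p = 0.0393). Without KO51, *Snhg11*, *Tom1l2*, *Dlat* and *Pdk1* of those named stayed among the closest 10.

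Markers of cell types were counted beside these results, since whole liver was measured. Fewer cells of a type and less RNA per cell cannot be told apart in such samples. Over all genes tested, limma called 4.28% lower and 0.452% higher. Of 10 hepatocyte markers none was called by limma, 0 passed an unadjusted p under 0.05, and the median difference was 0.09. Their summed FPKM ran from 31016 to 41592 in WT and from 32348 to 61047 in *Gpr180*KO livers. Adipocytes express the same pathway. Of their 10 markers 5 reached the minimum. Of the others, *Plin1* and *Ucp1* were listed at 0 in all 18 libraries, *Lep* in 17, and *Adipoq* and *Retn* in 14. *Retn* reached 1.26 FPKM in a *Gpr180*KO liver. Of the 5 tested, *Adrb3*, an adrenergic receptor, was called higher (0.964 ± 0.290 FPKM in WT and 2.11 ± 0.372 in *Gpr180*KO livers, difference 1.10, adjusted p = 0.00677). *Car3*, *Lipe* (6.36 and 6.73 FPKM in WT and *Gpr180*KO livers), *Fabp4* (44.7 and 30.4) and *Cfd* (18.8 ± 15.8 and 52.3 ± 89.3) were not called. The highest *Cfd* value was 277.7 FPKM, in a *Gpr180*KO liver. The summed level of the list, nearly all of it *Car3*, was 1948 to 2611 FPKM in WT and 1670.3 to 2623 in *Gpr180*KO livers. Of 8 markers of stellate cells and fibroblasts 5 were called lower (*Col1a1*, *Col3a1*, *Dcn*, *Pdgfrb* and *Lum*), with sums of 144 to 285 FPKM in WT and 80.5 to 142 in *Gpr180*KO livers. *Cd68* and *Cd14* of 6 tested macrophage markers, and *Sox9* and *Spp1* of 3 tested cholangiocyte markers, were lower too, with sums of 105 to 246 and 119 to 183 FPKM for the macrophage list and 47.9 to 232 and 22.0 to 55.4 for the cholangiocyte list. After median-of-ratios scaling *Cd14* (adjusted p = 0.0618) and *Sox9* (adjusted p = 0.120) were no longer called. None of 8 endothelial markers was called by limma or passed an unadjusted p under 0.05. Of 8 lymphocyte markers 1, *Ptprc*, reached the minimum (adjusted p = 0.0979). The part of these cell types in the values of the 10 genes was not tested.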

How the data were processed

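Poly(A) RNA of mouse liver was sequenced by the authors as single reads and aligned to mm10 with TopHat, and the deposited values are FPKM per gene with an interval for each. The study takes them as output of the TopHat Alignment application and gives only an approximate read number for its libraries as a whole. The program that estimated them, its annotation and the read total of each library are not given in the sources used here, so the depth behind a value is unknown. The deposited FPKM interval held 116 of the 180 values of the 10 genes, the other 64 lying above it, and it was not used as an error. Entries that share a symbol were summed, and the 24 symbols with a failed estimate were left out. Replicates are separate mice.

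A gene needed a mean of 1 FPKM over the libraries, and genes were compared on log2(FPKM + 0.1) with limma 3.58.1 in R 4.3.3 (lmFit, eBayes with trend), genotype only, with Benjamini-Hochberg adjustment over 10835 genes and a threshold of 0.05. Permutation tests and correlations were computed in Python 3.11.15 with numpy 2.4.6 and pandas 2.3.3. The tests were checked on simulated data. Transcript lengths are those of the longest coding transcript in GENCODE for GRCm38, matched for 91.2% of the genes tested. Promoter windows are from RefSeq. The genes named are the 10 genes, *Gpr180*, *Srebf1*, the genes of the lists past the threshold, the defining genes of each list and the 10 closest genes by covariation, of which 1 is not reported here. The 10 genes, the lists and the tests were chosen with earlier results of these data known.

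The alternatives were other pseudocounts (1 and 0.01), minimums (none and 5 FPKM) and scalings (median-of-ratios, 75th percentile and TPM), series 1 or series 2 alone, the series as a block, weights per library and each library left out. Those that combine a scaling or the block with leaving out KO51, the correlations without KO51, the block with median-of-ratios scaling and the removal of a length trend were added after seeing the data.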

Additional observations from a re-analysis of the deposited data

Results flagged for a closer look

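Of 28 groups of 9 values looked at for a value far from the rest, 3 held one by Dixon's criterion, and chance flags about 1 in 20 groups. *Scd1* in the *Gpr180*KO liver KO56 was at 6449 FPKM, and the gap to the next liver (4684) was 0.508 of the range of the group. The ratio of *Acss2* to *Acly* in KO51 was 1.275, with a gap of 0.678 of the range. The difference between long and short transcripts in KO51 was -1.456 on the log2 scale, with a gap of 0.826 of the range. No gene of the 10 differed between the series by limma's interaction term at an adjusted p under 0.05.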

How the results depend on the processing

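The direction of the difference was kept in all 33 alternative fits for 8 of the 10 genes. *Mlxipl* turned to -0.15 in series 2 alone, and *Scd2* to 0.028 with median-of-ratios scaling and without KO51. The number of the 10 genes called lower was 1 with no minimum, with median-of-ratios scaling, with 75th percentile scaling, with median-of-ratios scaling without KO51 and after removal of the length trend, 0 in series 2 alone, and 6 with the series as a block, with or without KO51. With single libraries left out it was 1 to 5, and 0 were called higher in every fit. Over genes tested the calls went from 464 lower and 49 higher to 171 and 112 with median-of-ratios scaling, and were 1031 and 122 with the series as a block, 689 and 89 without KO51 and 0 in series 2 alone. With no minimum 293 were lower and 20 higher. The median over the 10 genes stayed between -0.79 and -0.59 without single libraries.

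The log2 ratio of *Scd2* to *Scd1* was -0.039 in series 2 alone and -0.076 to 0.23 without single libraries. That of *Acss2* to *Acly*, whose p passed 0.05 only before adjustment over the 3 ratios, was -0.27 in series 2 alone (exact permutation p = 0.302) and ranged from -0.45 to -0.29 without single libraries, with unadjusted exact permutation p from 0.000823 to 0.0742, which was over 0.05 in 13 of 18 cases. The median r of the pairs was 0.45 in WT on deviations from the series means. On values as they stand it was 0.56 in WT with all livers, and 0.46 to 0.68 without single libraries. In *Gpr180*KO it was 0.83 on deviations without KO51. On values as they stand it was 0.65 in *Gpr180*KO with all livers, and 0.56 to 0.85 without single libraries. The pairs that passed in *Gpr180*KO numbered 2 on deviations, 29 without KO51 and 7 with both. The cause of these changes was not tested. No paired analysis was possible because the labels give no replicate numbers (those used here follow the order of the samples and only name them), and the series as a block is the nearest fit to one. FPKM without read totals limit what can be said of low values such as *Scd2*.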

Other observations

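The mitochondria hold a fatty acid synthesis pathway of their own, which makes the precursor of lipoic acid. Of its 6 tested genes (*Mcat*, *Oxsm*, *Cbr4*, *Mecr*, *Ndufab1* and *Acsf3*), 0 were called by limma and 0 passed an unadjusted p under 0.05 in either direction. Their median difference was 0.02, against -0.69 for the 10 genes of the cytosolic pathway and -0.13 for all genes tested. *Mecr*, the enoyl reductase, was at 18.9 ± 3.40 FPKM in WT and 19.5 ± 5.15 in *Gpr180*KO livers (SD, n = 9).

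Genes that rise in the fasted liver and genes of the circadian clock were counted because meals and the hour move lipogenic transcripts. Of 11 fasting genes limma called 0, with 2 lower and 2 higher at an unadjusted p under 0.05. Of the 10835 genes tested, 2403 passed that unadjusted p in either direction, and 2128 (19.6% of all) were lower. *Pck1*, the gluconeogenic carboxykinase, was at 470.2 ± 201 FPKM in WT and 735 ± 202 in *Gpr180*KO livers (difference 0.71, adjusted p = 0.0613, and 0.0419 without KO51), while *Pdk4* was at 9.65 ± 4.05 and 5.78 ± 3.51 (adjusted p = 0.166). Of 10 tested clock genes limma called 0, and 2 were lower at an unadjusted p under 0.05, against 19.6% of all genes. The part of feeding state or hour of sampling in the values of the lipogenic genes was not tested.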
